A study of Mus musculus with 298 samples.

Results

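The genes of the calcitonin gene-related peptide (CGRP) and adrenomedullin system were followed through the neurons of the mouse thoracic sympathetic ganglion. They were taken by name from a table of counts and are Calca, Calcb, Adm, Calcrl, Ramp1, Ramp2 and Ramp3, 7 of 16892 genes. Calca encodes α-CGRP and, by alternative splicing, calcitonin. Calcb encodes β-CGRP, and Adm encodes adrenomedullin. Calcrl is a G protein-coupled receptor that works only together with a receptor activity-modifying protein. With Ramp1 it binds CGRP, and with Ramp2 or Ramp3 it binds adrenomedullin. Both peptides relax blood vessels, and CGRP is best known from sensory nerve fibres and, in rat, from the cholinergic sympathetic neurons that supply sweat glands.

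RNA was counted in 298 single cells that were caught on 24 microfluidic chips, and every animal carried Wnt1-Cre together with R26R-Tomato, which marks cells of neural crest origin. Mice were 11 to 38 days old, with 91 cells from males and 207 from females. The labels give 8 identities to 213 cells: 4 Glutamatergic cells (P29 to P33), 8 Ach1 and 8 Ach2 cells (P16 to P38), which are called cholinergic here, and 193 noradrenergic cells (P11 to P38). Noradrenergic1 holds 10 of these, Noradrenergic4 18, Noradrenergic5 23 and Noradrenergic2 39, and Noradrenergic3, the largest, holds the rest. A further 85 cells are Unclassified. No label names an animal, so all cells of the same sex and age were taken as 1 collection, of which there were 10, and the collection was the replicate. Of the 44 libraries of identity and collection, 16 hold 1 cell, so p-values measure the spread between these libraries, which may be technical. How the identities were assigned is not given in the sources used here, and if it was from these same counts, a p-value between identities is not independent of it.

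Cells held 7225 to 81589 counts (median 33099), and by class the median was 25755.5 in Glutamatergic, 32937 in cholinergic and 37379 in noradrenergic cells. Levels are given as counts per 10000 counts of a cell or library, and they are not divided by gene length, so they are compared between cells but not between genes. The summed level of Slc17a6, Tac1, Scn10a and P2rx3, genes of glutamatergic and sensory neurons, was 22.4 to 71.8 in Glutamatergic cells and 0 to 1.20 in noradrenergic cells. That of Slc18a3, Slc5a7, Chat and Vip was 31.3 to 231 in cholinergic cells and 0 to 4.71 in noradrenergic cells. The noradrenergic sum of Th, Dbh, Slc6a2 and Slc18a2 was 0.546, 5.32 and 5.52 in 3 Glutamatergic cells, but 63.8 in the Glutamatergic cell of the P33 female collection, within the noradrenergic range of 42.4 to 170. The total of that cell, 51100, was the highest of the 4, and results that rest on it are given with and without it. The collection labelled P16 female held 0 counts of Xist and 28 of Y-linked genes in 5 cells, and it does not enter the comparison of the sexes.

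On the mouse build GRCm38 (mm10), with GENCODE M21 annotation, all 3 peptide genes lie on chromosome 7. Calca is at chr7:114631478-114636357 on the minus strand and Calcb at chr7:114718643-114723365 on the plus strand, 82285 bases apart with 2 genes between them. Adm is at chr7:110627661-110629820 on the plus strand and overlaps the antisense gene Gm28863, and since the counting is not stated to use strand, reads of that pair cannot be told apart. Calcrl is at chr2:84330626-84425411 (minus), Ramp1 at chr1:91179822-91225196 (plus), Ramp2 at chr11:101246028-101259546 (plus, overlapping Vps25 on the same strand) and Ramp3 at chr11:6658521-6677475 (plus, overlapping the pseudogene Gm11978 on the other strand). Calca and Calcb transcripts share 35 runs of 30 bases, 2.09% of those of Calca and 2.78% of those of Calcb, so reads from those stretches could have been counted for either gene. No other pair of the 7 genes shares such a run.

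The promoters of Calca and Adm are shown because these peptide genes had opposite distributions over the neurons. Each window runs from 250 bases before to 50 bases after the gene's start and comes from RefSeq on GRCm38.p6, where 5 of the 7 genes were matched and Calcb and Ramp2 were not. The Calca window is chr7:114636308-114636607 on the minus strand and the Adm window chr7:110627407-110627706 on the plus strand, both written 5′ to 3′ on the strand of the gene. Capitals mark the cyclic AMP response element core CGTCA, searched on both strands (TGACG on the other), which 20.8% of 32851 promoters hold.
Calca: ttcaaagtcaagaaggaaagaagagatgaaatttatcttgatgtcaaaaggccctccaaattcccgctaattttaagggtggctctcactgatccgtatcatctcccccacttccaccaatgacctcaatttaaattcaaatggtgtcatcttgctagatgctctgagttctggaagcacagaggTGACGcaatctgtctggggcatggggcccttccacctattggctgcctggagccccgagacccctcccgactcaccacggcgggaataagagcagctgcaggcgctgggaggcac
Adm: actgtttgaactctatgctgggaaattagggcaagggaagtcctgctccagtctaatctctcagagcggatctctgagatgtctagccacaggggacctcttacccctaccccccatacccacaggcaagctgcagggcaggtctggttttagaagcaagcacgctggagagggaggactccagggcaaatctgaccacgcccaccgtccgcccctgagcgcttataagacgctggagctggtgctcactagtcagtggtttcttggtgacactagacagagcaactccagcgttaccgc
In the Calca window TGACG begins 65 bases before the start, and the Adm window holds neither form. Of the hypoxia response element core only the form ACGTG was searched, also on both strands. It is found in 19.6% of promoters and is in neither window. The form GCGTG was not searched, and no share of promoters was computed for it. Its letters on the other strand, CACGC, can be read in the Adm window above but not in the Calca window. The Adm window can thus not be said to lack the core. A match is a run of letters and says nothing of binding, and a missing match says nothing of the factor.

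**Figure D1:**
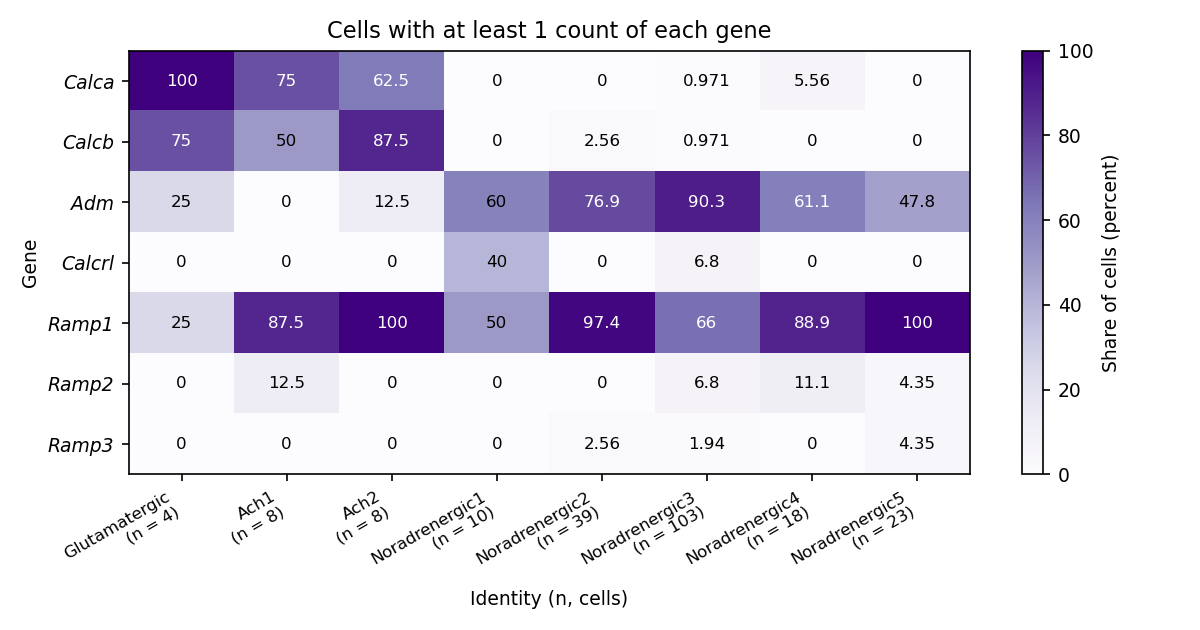
Share of cells, in percent, with at least 1 count of each gene (rows) in each identity (columns, n in cells), as deposited and not thinned. Calca and Calcb are found in Glutamatergic, Ach1 and Ach2 cells and Adm in the noradrenergic identities, while Calcrl has counts only in Noradrenergic1 (40%) and Noradrenergic3 (6.80%).

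The CGRP genes marked Glutamatergic and cholinergic neurons. Calca had 1264 counts in 4 Glutamatergic cells, 32 in 8 Ach1 cells, 48 in 8 Ach2 cells and 3 in 193 noradrenergic cells. Calcb had 52, 27, 38 and 3 counts in the same groups. In both genes cholinergic libraries were higher than noradrenergic libraries, and Glutamatergic libraries were higher still for Calca.

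In Glutamatergic cells, Calca held 189 and 325 counts in the pair from P29 males (83.8 and 177 per 10000), 437 in the P31 female cell (151 per 10000) and 313 in the P33 female cell (61.3 per 10000). No other named cell exceeded 7.80 per 10000, so these 4 cells did not overlap with the rest. Calca in Glutamatergic libraries was higher than in noradrenergic libraries by 13.90 on the log2 scale (SE 0.37, adjusted p = 3.27e-301, edgeR quasi-likelihood test with Benjamini-Hochberg adjustment, higher in 3 of 3 collections that hold both). Without the P33 cell 951 Calca counts remained in 3 cells, at 136 per 10000, and the log2 fold change was 13.75. Noradrenergic1, Noradrenergic2 and Noradrenergic5 had no Calca count, so the fitted fold depends on the prior count of the model. The counts alone gave a ratio of 25604, with a 95% interval of 8741 to 124320. This interval, like all others here, covers counting error only.

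Against cholinergic libraries, Glutamatergic libraries held more Calca by 7.06 on the log2 scale (SE 0.47, adjusted p = 5.27e-48, edgeR), and the counts gave a ratio of 71.04 (56.6 to 90.2). It was the only 1 of the 4 tested genes of the system that passed in this comparison, beside 1.51% of all 11555 genes tested. Adm, with 2 counts in these libraries, could hardly be called. For Calca DESeq2 gave a log2 fold change of 7.34 with an adjusted p of 0.301. Glutamatergic levels were 61.3, 126 and 151 per 10000 in 3 collections and cholinergic levels were at most 4.19 in 7 collections, with no overlap.

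Calcb was lower in count and was also highest in Glutamatergic cells when counts were pooled. Glutamatergic cells held 0 and 9 counts in P29 males (0 and 4.92 per 10000), 17 in the P31 female cell (5.87 per 10000) and 26 in the P33 female cell (5.09 per 10000). The cell with no Calcb held 189 Calca counts. Against noradrenergic libraries Calcb rose by 8.49 on the log2 scale in Glutamatergic libraries (SE 0.59, adjusted p = 2.29e-38, edgeR), with an adjusted p of 0.445 in DESeq2. Against cholinergic libraries the log2 fold change was 1.47 (SE 0.53, adjusted p = 0.188, edgeR), and the ratio of counts was 3.60 (2.45 to 5.26). This difference passed with RLE size factors (1.85, adjusted p = 0.0281), which raise the median of all genes by 0.24 here. In the test against noradrenergic libraries 3 of the 4 tested genes of the system passed, Calca and Calcb upward and Ramp1 downward, beside 2.63% of all genes tested.

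**Figure D2:**
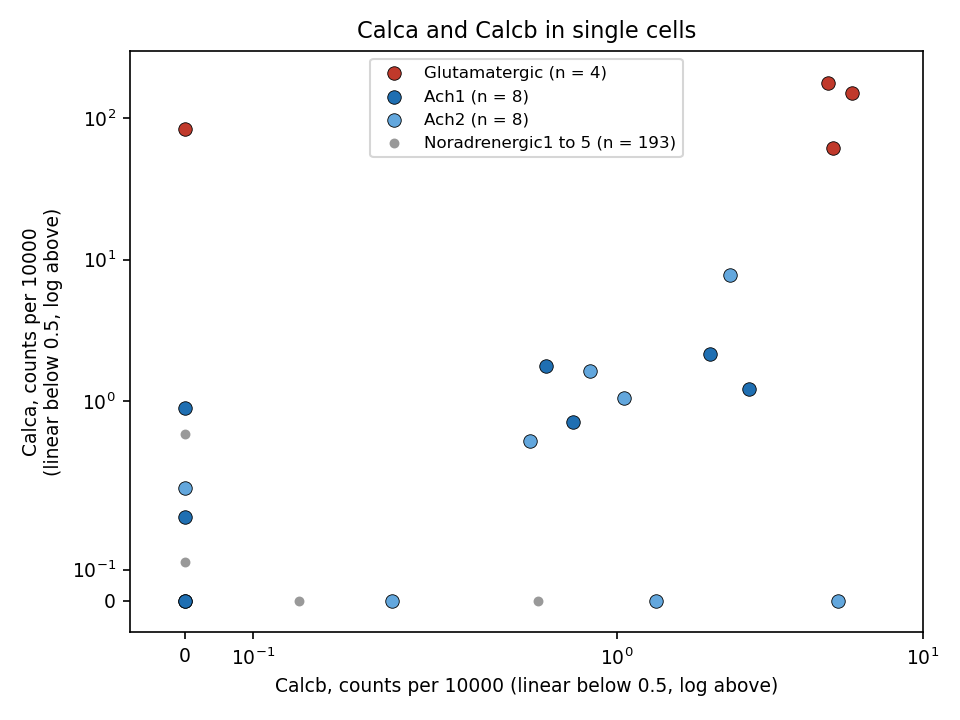
Calca (vertical axis) against Calcb (horizontal axis) in single cells, both as counts per 10000 on axes that are linear below 0.5 and logarithmic above, with 1 point per cell. The 4 Glutamatergic cells lie at 61.3 to 177 of Calca and the cholinergic cells at 0 to 7.80, while 189 of 193 noradrenergic cells lie at 0 of both genes.

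In the cholinergic neurons the CGRP genes were found at lower levels and not in every cell. The 8 Ach1 cells held 0, 0, 1, 5, 6, 1, 5 and 14 Calca counts, which is 75% of cells (57.6% after thinning each cell to 15000 counts), and the 8 Ach2 cells held 4, 2, 1, 0, 40, 0, 0 and 1, which is 62.5% (53.2% thinned). In the noradrenergic cells the share was 1.04% (0.454% thinned), so the cholinergic shares stand well above this background. For Calcb the Ach1 cells, in the same order, held 0, 0, 1, 0, 2, 0, 11 and 13 counts, which is 50% of cells (37.9% thinned), and the Ach2 cells held 2, 2, 0, 1, 12, 15, 5 and 1, which is 87.5% (74.4% thinned). Of the 16 cholinergic cells, 8 held both transcripts, 3 Calca only, 3 Calcb only and 2 neither, and the 2 with neither are Ach1 cells of the P29 male and P33 female collections.

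By collection, Calca ran from 0 to 1.77 per 10000 in Ach1, with a median of 0.890 and a mean of 0.868 ± 0.687 (SD, n = 7). In Ach2 it was 0.358 at P16 female, 0.302 at P29 male, 7.80 at P30 female and 0.649 at P38 male, so a lone cell set the mean of 2.28 ± 3.69 (SD, n = 4). Without that cell Ach2 held 8 Calca counts in 7 cells, 0.424 per 10000. Calca of cholinergic libraries was higher than that of noradrenergic libraries by 6.84 on the log2 scale (SE 0.52, adjusted p = 7.35e-37, edgeR), in 6 of 7 collections that hold both, with no count on either side in the seventh. Calcb was higher by 7.03 (SE 0.56, adjusted p = 8.44e-30, edgeR), with an adjusted p of 0.276 in DESeq2, and it was higher in 6 and lower in 1 of the 7 collections. Adm passed in the other direction, so 3 of the 4 tested genes of the system passed here, beside 4.57% of all genes tested.

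Between the cholinergic identities no gene of the system passed, beside 0.138% of all genes tested: edgeR called 0 of 4, 2 had an unadjusted p under 0.05 (Calcb and Ramp1), and DESeq2 called 0 of 2. Adm, with 1 count in these cells, could hardly be called. The log2 fold changes of Ach1 over Ach2 were -0.71 for Calca (SE 0.54, adjusted p = 0.825, edgeR) and -1.31 for Calcb (SE 0.52, adjusted p = 0.567, edgeR). Without the P30 female collection that of Calca was 1.31 (adjusted p = 0.769), and without the P16 female collection that of Calcb was -2.68 (adjusted p = 0.0236). Both values thus depended on 1 collection each, and the ranges of Ach1 and Ach2 overlapped for both genes.

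The ratio of Calca to Calcb counts also separated those cells that hold a Calcb count. It was 25.7, 36.1 and 12.0 in the 3 Glutamatergic cells with both transcripts. In the 11 cholinergic cells with a Calcb count it ran from 0 to 3.33. A cell with no Calcb count has no ratio. This left out 3 cholinergic cells with 5, 1 and 1 Calca counts and the Glutamatergic cell with 189, so an overlap that includes them cannot be judged. The cells with a ratio did not overlap between the groups, and no test was made, as the cells come from few collections.

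Counts of the CGRP genes outside these identities were few. The 2 noradrenergic cells with Calca (2 counts in a Noradrenergic3 cell and 1 in a Noradrenergic4 cell) came from P31 females and from chips with no Glutamatergic cell. The 4 chips with a Glutamatergic cell also held 47 noradrenergic cells, and these had no Calca count. Of the 2 noradrenergic cells with Calcb, a P33 female Noradrenergic3 cell with 2 counts came from a chip that holds a Glutamatergic cell, and a P30 female Noradrenergic2 cell with 1 count came from a chip that does not. Markers of glia, 8 genes such as Sox10 and S100b, had a median sum of 19.96 per 10000 (10.96 to 42.5) in Glutamatergic, 17.7 (0.195 to 39.5) in cholinergic and 1.75 (0 to 58.6) in noradrenergic cells. Of the 7 glial genes tested edgeR called 0 in either class against noradrenergic libraries, with 2 at an unadjusted p under 0.05 in each (Fabp7 and S100b), and DESeq2 called 0 as well. The 2 cholinergic cells with no CGRP transcript had glial sums of 33.7 and 17.6. In the 53 noradrenergic cells with a glial sum of at least 10.96, there were 0 Calca and 1 Calcb counts. The 2 Ach1 cells with over 10 Calcb counts, which also hold 14 and 5 Calca counts, had glial sums of 0.466 and 0.491. The Ach2 cell with 40 Calca counts had 0.195. The P29 male Ach2 cell with 15 Calcb counts, the most in a cholinergic cell, and no Calca count had 21.5. The part of glial RNA in these counts was not tested.

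Adm had the opposite distribution, and its highest level was in Noradrenergic3. It had 705 counts in 193 noradrenergic cells, in 78.2% of them (61.8% thinned), 1 count in 16 cholinergic cells and 1 in 4 Glutamatergic cells. Ach1 had 0 counts in 8 cells and 303658 counts, which allows up to 0.0988 per 10000. The single Glutamatergic count was in the P33 female cell with noradrenergic markers. The other 3 Glutamatergic cells had 0 counts of Adm in 69821 counts, which allows up to 0.430 per 10000.

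In descending order, Adm was found in 90.3% of Noradrenergic3 cells (75.9% thinned), 76.9% of Noradrenergic2 (52.5%), 61.1% of Noradrenergic4 (44.8%), 60% of Noradrenergic1 (45.9%) and 47.8% of Noradrenergic5 cells (32.99%). In cholinergic cells, which served as the background, the share was 6.25% (3.58% thinned). By collection the mean level was 0.799 ± 0.639 per 10000 in Noradrenergic1 (SD, n = 5), 0.533 ± 0.432 in Noradrenergic2 (n = 7), 1.46 ± 0.609 in Noradrenergic3 (n = 7), 0.441 ± 0.549 in Noradrenergic4 (n = 5) and 0.518 ± 0.411 in Noradrenergic5 (n = 6). The mean of Noradrenergic3 was the highest, and the remaining 4 identities lay within each other's spread. By collection Noradrenergic3 (0.887 to 2.69) overlapped each of them, and most of all Noradrenergic1 (0.221 to 1.77).

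**Figure D3:**
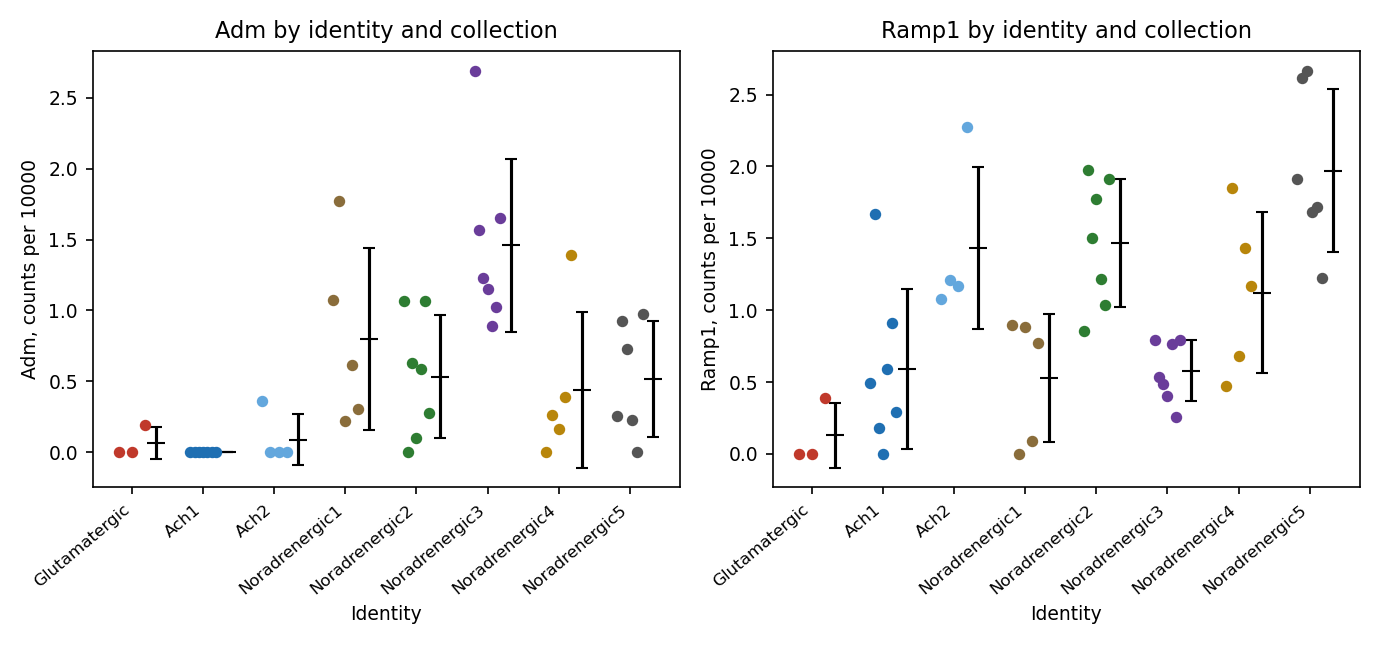
Adm (left) and Ramp1 (right) in counts per 10000, by identity, with 1 point per collection and a bar for the mean and its SD over collections. Adm averages 1.46 in Noradrenergic3 and 0 in Ach1, and Ramp1 averages 1.97 in Noradrenergic5 and 0.577 in Noradrenergic3.

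Cholinergic libraries had less Adm than noradrenergic ones by a log2 fold change of -5.31 (SE 0.77, adjusted p = 1.08e-09, edgeR), and the direction held in 7 of 7 collections. For Glutamatergic libraries the log2 fold change was -3.11 (SE 1.04, adjusted p = 0.0874, edgeR), and without the P33 female cell it was -6.59 (adjusted p = 0.0690), so the call was not reached with 3 or with 4 cells.

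Within each collection Noradrenergic3 cells held more Adm than the other noradrenergic cells. The Noradrenergic3 levels were 0.887 to 2.69 per 10000 in 7 collections, with a median of 1.23, against 0.166 to 0.978 in the other noradrenergic cells of the same collections. The P11 female collection had the widest gap (2.69 against 0.166) and the P34 female collection the narrowest (1.03 against 0.978). The order against the pooled cells was the same in 7 of 7 collections, although the ranges overlap. The log2 fold change was 1.44 (SE 0.21, adjusted p = 1.21e-08, edgeR), and DESeq2 gave 1.40 with an adjusted p of 0.201. Of the 4 tested genes of the system 2 passed in this comparison, Adm upward and Ramp1 downward, beside 1.74% of all genes tested. The others, Calca and Calcb, had only 3 counts each in noradrenergic cells. They passed the filter on low counts only through the other classes and could hardly be called between noradrenergic identities.

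A few genes of vessel walls were also called in Noradrenergic3. Of 8 smooth muscle and pericyte genes 3 could be tested, and Myh11 (log2 fold change 3.06, adjusted p = 0.00576, edgeR) and Rgs5 (1.85, adjusted p = 0.00156, edgeR) rose. Of 12 endothelial genes 3 could be tested, and the receptor gene Flt1 was called (2.64, adjusted p = 0.0278, edgeR), a call lost in 4 of the 12 alternatives that could test it. Flt1 had 21 counts in 4 named cells, all Noradrenergic3, and 17 of them were in 1 P30 female cell, without which the gene falls below the filter on low counts. The summed smooth muscle and pericyte level was 0 to 15.3 per 10000 in Noradrenergic3, with a median of 0.153, and its median was 0 in each other noradrenergic identity. The endothelial sum had a median of 0.507 in Noradrenergic3 (0 to 17.4), beside 0.739 in Noradrenergic1, 0.519 in Noradrenergic2, 0.498 in Noradrenergic4 and 0.356 in Noradrenergic5. In the 42 Noradrenergic3 cells with no count of either list, Egfl7 apart, Adm stood at 1.27 per 10000 and Ramp1 at 0.754, against 0.561 and 1.28 in the 52 other noradrenergic cells with none. Where such counts were present, Adm was 1.41 and Ramp1 0.403 in 61 Noradrenergic3 cells, and they were 0.485 and 1.43 in 38 other noradrenergic cells. Of 6 fibroblast genes 5 could be tested. edgeR called 2 of them in Noradrenergic3 and 3 in Noradrenergic5, where 1.74% and 1.41% of all genes were called. DESeq2 called 0 of 4 in each. The summed fibroblast level was 0 to 98.9 per 10000 in Noradrenergic3 (median 0) and 0 to 20.2 in Noradrenergic5 (median 0.203). The part of vessel-wall or fibroblast RNA in the levels of Adm and Ramp1 was not tested.

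The other noradrenergic identities did not pass for Adm. The log2 fold changes against the remaining noradrenergic identities were -0.02 for Noradrenergic1, 0.01 for Noradrenergic2, -0.43 for Noradrenergic4 (adjusted p = 0.776, edgeR) and -0.996 for Noradrenergic5 (SE 0.37, adjusted p = 0.230, edgeR). With only libraries of at least 2 cells that of Noradrenergic5 was -1.46 (adjusted p = 0.00837). Noradrenergic5 was lower in 6 of 6 collections, at 0 to 0.978 per 10000 against 0.884 to 2.27. In Noradrenergic4 the P38 male collection reached 1.39, and the other 4 lay between 0 and 0.392. Without that collection the log2 fold change of Noradrenergic4 was -1.75 (adjusted p = 0.0464, edgeR).

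Calcrl, the receptor subunit shared by CGRP and adrenomedullin, was rare, and its counts were concentrated in Noradrenergic1. It had 10 counts in 4 of 10 Noradrenergic1 cells and 9 counts in 7 Noradrenergic3 cells. No count was found in Glutamatergic, Ach1, Ach2, Noradrenergic2, Noradrenergic4 or Noradrenergic5 cells. For the 39 Noradrenergic2 cells this allows up to 7.69% of cells with a count and a level of up to 0.0174 per 10000, and for the 4 Glutamatergic cells a level of up to 0.248 per 10000. These limits are on counted transcripts and not on how many cells express the gene.

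The Noradrenergic1 cells with Calcrl were P29 male cells with 3 and 1 counts and P30 male cells with 3 and 3 counts. The 6 Noradrenergic1 cells of the P30 female, P31 female and P38 male collections had none. By collection the levels were 0.718 at P29 male, 1.33 at P30 male and 0 in the other 3. All of the counts were thus in 2 of 5 collections. The level was 0.344 per 10000 in Noradrenergic1 (0.165 to 0.633) and 0.0128 in the other noradrenergic cells, a ratio of 27.01 (9.86 to 75.1). The share of cells was 40% in Noradrenergic1 (37.7% thinned) and 6.80% in Noradrenergic3 (3.15% thinned).

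Calcrl, with 19 counts in named cells, did not pass the filter on low counts. In a fit with no filter, added after these values were seen, the log2 fold change of Noradrenergic1 over the other noradrenergic identities was 3.45 (SE 1.23, adjusted p = 0.227, edgeR). It was 5.12 with no replicate block (adjusted p = 1.10e-08) and 0.69 without the P29 male collection, so the call depended on whether the collection was a term of the model.

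Endothelial markers were checked in the cells with Calcrl, which endothelial cells express strongly. In Noradrenergic1 the counts of Pecam1, Cdh5, Kdr, Flt1 and Tek were 0. The endothelial counts of that identity were 18 of Egfl7, 1 of Cldn5 and 1 of Esam, and Egfl7 was found in 170 of 213 named cells. Among the 7 Noradrenergic3 cells with Calcrl, a P30 female cell held 2 Calcrl and 2 Ramp2 counts together with counts of all 12 endothelial genes (17.4 per 10000). Without it Noradrenergic3 held 7 Calcrl counts in 6 cells, with an endothelial sum of 0.285 to 1.83 per 10000. The 202 named cells with no Calcrl had a median endothelial sum of 0.475. Some cells with Calcrl also held markers of other cells. A P29 male Noradrenergic1 cell with 3 Calcrl counts had a glial sum of 42.7 per 10000. A P30 male Noradrenergic1 cell with 3 had a fibroblast sum of 13.5. The P29 male cell with 1 count and the other P30 male cell had glial sums of 0.432 and 0.561 and no fibroblast count. In the 7 Noradrenergic3 cells the smooth muscle and pericyte sum was 0 to 15.3 (median 0.153). The part of such RNA was not tested.

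**Figure D4:**
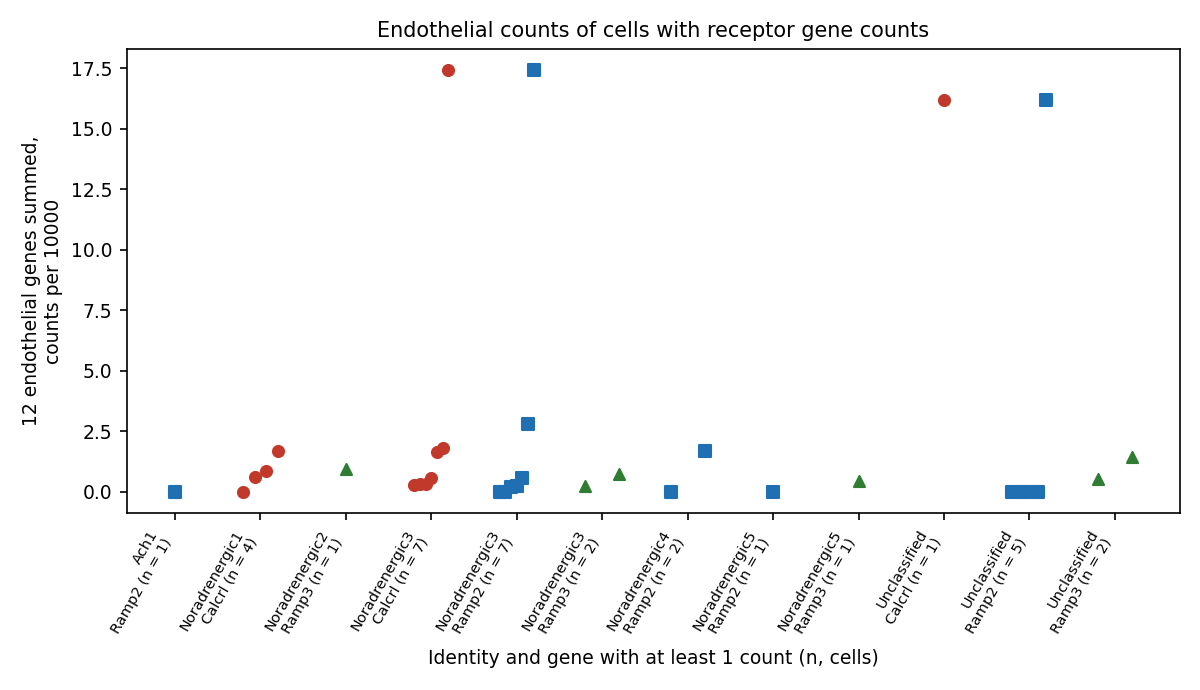
Summed level of 12 endothelial genes, in counts per 10000, in each cell with at least 1 count of Calcrl (circles), Ramp2 (squares) or Ramp3 (triangles), by identity, with n in cells. A Noradrenergic3 cell (17.4) and an Unclassified cell (16.2), each with both Calcrl and Ramp2, lie apart, and the 4 Noradrenergic1 cells with Calcrl lie between 0 and 1.68.

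Ramp1, the partner that makes Calcrl a CGRP receptor, was found in all cholinergic and noradrenergic identities. In Glutamatergic cells it was found in 1 of 4 (12.5% thinned), the P33 female cell with noradrenergic markers, and in 0 of 3 without it. It was detected in 87.5% of Ach1 and 100% of Ach2 (78.4% of both together), 100% of Noradrenergic5 (91.6%), 97.4% of Noradrenergic2 (84.1%), 88.9% of Noradrenergic4 (71.4%), 66.0% of Noradrenergic3 (44.6%) and 50% of Noradrenergic1 cells (40.3%). No identity was known to lack the gene, so no background share is set beside these. After thinning, Ach2 (91.8%) and Noradrenergic5 (91.6%) had the highest shares.

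By collection the mean level in descending order was 1.97 ± 0.568 per 10000 in Noradrenergic5 (SD, n = 6), 1.47 ± 0.443 in Noradrenergic2 (n = 7), 1.43 ± 0.563 in Ach2 (n = 4), 1.12 ± 0.559 in Noradrenergic4 (n = 5), 0.590 ± 0.559 in Ach1 (n = 7), 0.577 ± 0.213 in Noradrenergic3 (n = 7), 0.528 ± 0.445 in Noradrenergic1 (n = 5) and 0.130 ± 0.226 in Glutamatergic libraries (n = 3). Each pair of neighbours in this order differed by less than the larger SD of the pair.

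Ramp1 and Adm ran in opposite directions in Noradrenergic3. Ramp1 in Noradrenergic3 was 0.257 to 0.794 per 10000 over 7 collections, with a median of 0.537, against 1.20 to 1.87 in the other noradrenergic cells of the same collections. These ranges did not overlap, and Noradrenergic3 was lower than the pooled others in 7 of 7. Taken alone, Noradrenergic1 lay as low, at 0 to 0.897 per 10000 in 5 collections. The log2 fold change of Noradrenergic3 was -0.85 (SE 0.23, adjusted p = 0.0187, edgeR). The call was lost without P29 male (adjusted p = 0.249), P30 female (0.0644), P31 female (0.0729) or P38 male (0.125).

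In Noradrenergic5 Ramp1 was 1.91 at P11 female, 2.62 at P29 male, 2.67 at P30 female, 1.68 at P31 female, 1.72 at P33 female and 1.22 at P34 female. The other noradrenergic cells of those collections had 0.743, 0.885, 0.867, 0.646, 0.952 and 0.257. Noradrenergic5 was higher in 6 of 6, and the ranges did not overlap. The log2 fold change was 1.33 (SE 0.26, adjusted p = 6.95e-05, edgeR), and without P31 female, which holds 14 of the 23 cells, it was 1.13 (adjusted p = 0.0816). It was the only 1 of the 4 tested genes of the system that passed, beside 1.41% of all genes tested. Of these 4, Calca and Calcb had only 3 counts each in noradrenergic cells and could hardly be called.

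**Figure D5:**
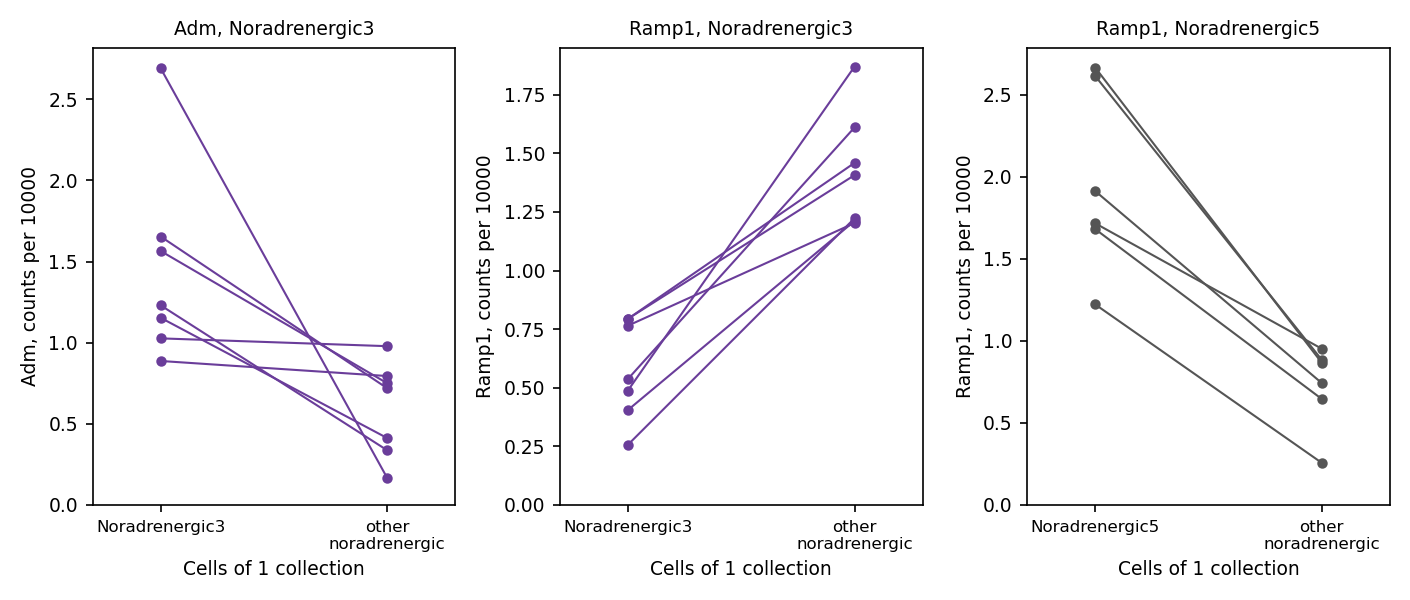
Adm in Noradrenergic3 (left), Ramp1 in Noradrenergic3 (middle) and Ramp1 in Noradrenergic5 (right), each beside the other noradrenergic cells of the same collection, in counts per 10000, with a line for each collection. Adm is higher and Ramp1 lower in Noradrenergic3 in 7 of 7 collections, and Ramp1 is higher in Noradrenergic5 in 6 of 6.

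The remaining noradrenergic identities did not pass for Ramp1. The log2 fold changes were -1.36 in Noradrenergic1 (SE 0.43, adjusted p = 0.0896, edgeR), 0.73 in Noradrenergic2 (SE 0.23, adjusted p = 0.0756, edgeR) and 0.16 in Noradrenergic4 (SE 0.28, adjusted p = 0.929, edgeR). Noradrenergic1 was lower in 4 of 4 collections and Noradrenergic2 higher in 5 of 5. Without the P30 male collection both passed, with edgeR adjusted p-values of 0.0410 and 0.0367, and with only libraries of at least 2 cells both passed as well (0.0401 and 0.00715). With all collections edgeR called none of the 4 tested genes of the system in these 3 comparisons, where it called 1.39%, 1.64% and 1.25% of all genes tested for Noradrenergic1, Noradrenergic2 and Noradrenergic4. An unadjusted p under 0.05 was found for 1, 1 and 0 of them, and DESeq2 called 0 of 2 in each. Of the 4, Calca and Calcb had only 3 counts each in noradrenergic cells and could hardly be called.

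In Glutamatergic cells Ramp1 had 2 counts, both in the P33 female cell with noradrenergic markers, at 0.391 per 10000. The other 3 cells had 0 counts, which allows up to 0.430 per 10000. Noradrenergic libraries averaged 1.01 ± 0.376 per 10000 (SD, n = 10). The log2 fold change of Glutamatergic over noradrenergic libraries was -2.75 (SE 0.82, adjusted p = 0.0345, edgeR), in a comparison where the median of all genes was -0.39, and it was -7.11 without the P33 cell (adjusted p = 0.0159). The call was lost with RLE size factors (-2.38, adjusted p = 0.118), without the P29 male collection (-2.07, adjusted p = 0.469) and without the P31 female collection (-2.48, adjusted p = 0.240). Cholinergic libraries did not pass against noradrenergic ones (-0.32, SE 0.28, adjusted p = 0.649, edgeR), and neither did Ach1 against Ach2 (-1.30, SE 0.50, adjusted p = 0.533, edgeR).

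Ramp2 and Ramp3, the partners for adrenomedullin, were near the limit of detection and did not pass the filter on low counts. In the fit with no filter edgeR called neither of them in any comparison. Ramp2 had 1 count in Ach1, 9 in 7 Noradrenergic3 cells, 2 in Noradrenergic4 and 1 in Noradrenergic5, 13 in all. Ramp3 had 1 count in Noradrenergic2, 2 in Noradrenergic3 and 1 in Noradrenergic5. No Ramp2 or Ramp3 count was found in Glutamatergic, Ach2 or Noradrenergic1 cells. The 11 named cells with Ramp2 had a median glial sum of 12.6 per 10000, against 1.78 in the 202 without, and the part of glial RNA in these counts was not tested. With Calcrl, 3 of the 7 genes of the system thus fell below the filter of 20 counts.

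Few cells held the transcripts of a whole receptor. Calcrl and Ramp1 were found together in 2 Noradrenergic1 and 5 Noradrenergic3 cells, 7 of the 11 named cells with Calcrl. Of these Noradrenergic1 cells, 1 had a glial sum of 42.7 and the other a fibroblast sum of 13.5. The Noradrenergic1 cells with Calcrl but no Ramp1 count had glial sums of 0.432 and 0.561 and no fibroblast count. Of the 5 Noradrenergic3 cells, 1 held all 12 endothelial genes, 1 held 6 of them and 1 other had a glial sum of 11.2. The rest had glial sums of 1.29 and 0.331. The part of such RNA in these cells was not tested. Calcrl and Ramp2 met in 2 Noradrenergic3 cells, 1 of them the cell with counts of all endothelial genes, and Calcrl and Ramp3 in none. Ramp1 without Calcrl was found in 159 named cells. None of the 22 named cells with Calca or Calcb held Calcrl. Adm was found in all 7 Noradrenergic3 cells with Calcrl, in an identity where 90.3% of cells hold it, and in 2 of the 4 Noradrenergic1 cells with Calcrl. At 1 to 3 counts per cell, a cell with no Calcrl count cannot be read as lacking the receptor.

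Males and females were compared in Noradrenergic3, with 2 male and 5 female libraries. The male libraries, P29 and P38, came from a single chip number series, while the P11 and P31 females came from another. The P33 females came from both, and most of their cells from the latter. Sex is thus mixed with chip series and age, and this comparison cannot tell them apart. On the chips of the series that holds both sexes, the P29 and P38 males were set against the P30 and P34 females. There 15 genes were called, and Adm and Ramp1 were not. Over all libraries Adm was 1.56 and 1.65 per 10000 in the males and 0.887 to 2.69 in the females, with a log2 fold change of 0.23 (SE 0.31, adjusted p = 1.00, edgeR). Ramp1 was 0.537 and 0.794 in the males and 0.257 to 0.794 in the females, with a log2 fold change of 0.33 (SE 0.32, adjusted p = 1.00, edgeR). The sexes overlapped for both. edgeR called 0 of these 2 genes, none had an unadjusted p under 0.05 and DESeq2 called 0, beside 0.0296% of the 10141 genes tested.

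Genes that carry the signal onward were taken from a list of 28, of which 23 were tested. In cholinergic against noradrenergic libraries 5 rose and none fell, where 4.57% of all genes were called, with a list median of 0.07 on the log2 scale beside -0.20 for all genes. Ackr3, a scavenger receptor for adrenomedullin, stood at 0.276 against 0.0272 per 10000 (log2 fold change 2.77, adjusted p = 0.00282, edgeR). Adcy5, an adenylyl cyclase, had 8 counts in cholinergic and 3 in noradrenergic cells (3.28, adjusted p = 0.00288, edgeR). These counts fall short of the filter of 20. Adcy5 passed it only with the counts of Glutamatergic cells, where it was called as well. The arrestin gene Arrb1 (2.06), the protein kinase A regulatory subunit gene Prkar2b (0.96, adjusted p = 0.0443) and the cyclic AMP-responsive exchange factor gene Rapgef4 (1.81) also rose in edgeR. The call of Prkar2b was lost in 9 of 18 alternatives and that of Ackr3 in 3 of 16. In Glutamatergic against noradrenergic libraries 2 rose and 2 fell, where 2.63% of all genes were called, with a list median of -0.36 beside -0.39 for all genes. Adcy5 (6.09) and Arrb1 (3.79) rose, while Gnas, the stimulatory G protein subunit to which Calcrl couples, fell to 17.8 against 36.1 per 10000 (-1.43, adjusted p = 0.00467, edgeR). Prkacb, a catalytic subunit of protein kinase A, also fell (-1.33, adjusted p = 0.0224, edgeR), and its Glutamatergic level was 0.345 to 5.09 per 10000. That call was lost in 6 of 18 alternatives.

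Genes that mature peptides were a list of 8, of which 7 were tested. In cholinergic against noradrenergic libraries Pam, the enzyme that amidates the ends of CGRP and adrenomedullin, rose by 0.67 (adjusted p = 0.0185, edgeR), a call lost in 7 of 18 alternatives. The prohormone convertase gene Pcsk2 was 0.552 per 10000 in cholinergic cells and 2.08 in noradrenergic cells (-1.84, adjusted p = 7.67e-08, edgeR), and the carboxypeptidase gene Cpe fell (-0.69, adjusted p = 0.0497, edgeR), a call lost in 12 of 18. These are 1 gene higher and 2 lower of 7, where 4.57% of all genes were called. In Glutamatergic against noradrenergic libraries edgeR called none of the 7, none had an unadjusted p under 0.05 and DESeq2 called 0. Adm is known as a target of hypoxia-inducible factors, and of 12 genes of the hypoxia response Ldha fell in cholinergic (-0.69, adjusted p = 0.0148, edgeR) and Hif1a rose in Glutamatergic libraries (2.16, adjusted p = 0.00736, edgeR), both against noradrenergic ones. These were 1 of 12 in each, where 4.57% and 2.63% of all genes were called. The list medians were 0.006 and 0.60 on the log2 scale, beside -0.20 and -0.39 for all genes. The call of Ldha was lost in 2 of 18 alternatives and that of Hif1a in 3 of 17. Within the noradrenergic identities edgeR made 3 calls of this list, 2 of 12 genes in Noradrenergic3 and 1 of 12 in Noradrenergic1. Of all genes tested 1.74% and 1.39% were called there. DESeq2 called 0 of 11 and 0 of 12 of the list in these identities. In Noradrenergic3 Epas1, which encodes a hypoxia-inducible factor, rose by 1.55 (adjusted p = 0.00295, edgeR), at 0.315 per 10000, and Egln3, a prolyl hydroxylase of these factors, by 1.96 (adjusted p = 0.0311, edgeR), while in Noradrenergic1 Egln3 rose by 3.77 (adjusted p = 2.27e-04, edgeR). The calls were lost in 3 of 17, 5 of 16 and 2 of 17 alternatives. Adm itself was not called in Noradrenergic1 (-0.02), and a link between these genes and Adm was not tested.

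Each noradrenergic identity was also set against the others for these lists of signalling and peptide maturation genes, where the shares of all genes called are those given above. Noradrenergic1, which holds most Calcrl counts, had more Prkar2b (log2 fold change 2.64, adjusted p = 9.38e-12, edgeR) and less Pcsk2 (-1.45, adjusted p = 0.0123, edgeR). Noradrenergic5, where Ramp1 was highest, had less Prkar2b (-2.51, adjusted p = 6.95e-05, edgeR) and more of the adenylyl cyclase gene Adcy1 (1.63, adjusted p = 0.0105, edgeR). In Noradrenergic3 the only signalling gene of 23 that passed was Rapgef4 (1.34, adjusted p = 0.0220, edgeR), and none of the 7 peptide maturation genes was called by edgeR. Noradrenergic2 had more Rapgef4 (1.87) and Pam (0.92), and Noradrenergic4 had more Gnas (1.09), with edgeR adjusted p-values of 6.63e-04, 8.05e-04 and 9.52e-04. Of these calls Pcsk2 in Noradrenergic1 was lost in 5 of 18 alternatives, Rapgef4 in Noradrenergic3 in 5 of 17, Pam in Noradrenergic2 in 4 of 18 and Adcy1 in Noradrenergic5 in 2 of 17, and the others were kept in every alternative that could test them.

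The genes whose levels most resembled those of a member, by Pearson correlation of log2(counts per 10000 + 1) over the 44 libraries, were as follows. For Calca they were Tac1, the substance P precursor (0.94), Nmb (0.90) and Sulf1 (0.90), and for Calcb they were Slc10a6 (0.81), Tmem255a (0.77) and the neuronal splicing factor gene Rbfox3 (0.74). For Adm they were Prom1 (0.74), Palmd (0.66) and Cib2 (0.65), and for Ramp1 the synaptic vesicle gene Syngr3 (0.68), Rdh13 (0.67) and Aprt (0.62). Libraries of an identity share their cell type and those of a collection their chips, and these values describe likeness only. Over the 213 named cells, by Spearman correlation, the nearest genes were Rbfox3 for both Calca (0.66) and Calcb (0.68), the neuropeptide gene Gal for Adm (0.56) and Spock3 for Ramp1 (0.60), so only Rbfox3 for Calcb was among the top 3 by both measures.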

How the data were processed

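Polyadenylated RNA of single cells was sequenced after barcoding with Tn5 transposase, and chip sites were inspected by eye for single cells, per the labels. The authors deposited whole-number counts per gene and cell, and the build was mm10 per the submitters' processing notes; the aligner, the counter, the annotation and any collapsing of molecules are not given in the sources used here. No doublet caller was run. The glial marker sum leaves out 2 genes that are not reported here.

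Cells were summed by identity and collection, and Unclassified cells were left out. The filter kept 11555 genes, among them 4 of the 7 members, with 20 or more counts spread over 3 or more libraries. They were fitted with edgeR 4.0.16 in R 4.3.3 (TMM, robust quasi-likelihood, two-sided F test, collection as a block), with identities weighted equally in each contrast and a threshold of 0.05 on the Benjamini-Hochberg adjusted p. The SE is the absolute log2 fold change divided by the square root of F. Shared collections were kept as pairs because, over 6615 genes in libraries of at least 5 cells, the departures of a library from the mean of its identity had correlations of 0.137 to 0.153 for the 4 pairs within a collection and of -0.0292 on average for 20 other pairs. Alternatives were RLE size factors, other filters, DESeq2 1.42.0, no replicate block, libraries of at least 2 cells and each collection left out. The script was tested on simulated data.

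Shares were also computed after thinning to 15000 counts, which left out 3 named cells, and limits for 0 counts use 3 counts. Intervals are 95% exact binomial or Poisson. The named genes are the members, listed genes called against noradrenergic libraries, and for each member with at least 50 counts the 3 most correlated genes; listed genes called elsewhere (Egln3, Epas1, Adcy1, Flt1, Myh11, Rgs5 and those within the noradrenergic identities) were named after their values were seen. Members and lists were chosen with earlier results of these data known.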

Additional observations from a re-analysis of the deposited data

Results flagged for a closer look

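Over 13 groups of 4 to 10 collections, 4 levels stood apart from the rest of their group by Dixon's test, and chance alone sets apart about 1 in 20 groups. Calca in the Ach2 collection of the P30 female was 7.80 per 10000, from a lone cell, and the next highest was 0.649. Ramp1 in the Ach2 collection of the P38 male was 2.27 per 10000, from 2 cells, and the next was 1.21. Adm in the Noradrenergic3 collection of the P11 female, the youngest animals, was 2.69 per 10000, and the next was 1.65. Adm in the Noradrenergic4 collection of the P38 male was 1.39 per 10000, and the next was 0.392.

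The Unclassified cells, which enter no comparison, also held counts of these genes above the limit that a count of 0 allows. They had 171 counts of Adm, 168 of Ramp1 and 5 of Ramp2 in 85 cells.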

How the results depend on the processing

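No called gene of the system turned round under any alternative. With no replicate block none of the 10 calls was lost, and Ach1 against Ach2 called 5 genes. DESeq2 did not call Calcb in cholinergic (6.07) or Glutamatergic (8.59) against noradrenergic, Calca in Glutamatergic against cholinergic (7.34) or Adm in Noradrenergic3 (1.40). Ramp1 in Glutamatergic against noradrenergic was not called with RLE size factors (-2.38), filterByExpr (-2.47), DESeq2 (-2.41) or at least 2 cells per library (-7.69). With each collection left out, log2 fold changes ran from 5.94 to 7.43 for Calca, 5.79 to 7.36 for Calcb and -6.58 to -4.90 for Adm in cholinergic against noradrenergic; from 13.29 to 15.34 for Calca, 7.57 to 8.83 for Calcb and -7.12 to -2.07 for Ramp1 in Glutamatergic against noradrenergic; from 5.86 to 8.80 for Calca in Glutamatergic against cholinergic; from 1.26 to 1.58 for Adm and -0.96 to -0.73 for Ramp1 in Noradrenergic3; and from 1.13 to 1.43 for Ramp1 in Noradrenergic5.

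Genes called under filterByExpr, which tests fewer genes, were 298 in cholinergic and 141 in Glutamatergic against noradrenergic, 91 in Glutamatergic against cholinergic, 3 in Ach1 against Ach2 and 88, 61, 56, 79 and 53 in Noradrenergic1 to Noradrenergic5. With at least 2 cells per library they were 279, 184 and 113 in the comparisons of classes and 242 in Noradrenergic1. DESeq2 called 4 in Ach1 against Ach2, 115 in Noradrenergic2, 109 in Noradrenergic3 and 92 in Noradrenergic5. Between the sexes 8 genes were called with no filter and 15 on the chips of the number series that holds Noradrenergic3 cells of both sexes. With each collection left out the counts ran from 348 to 567, 91 to 360 and 52 to 213 in the comparisons of classes, 5 to 17 in Ach1 against Ach2, 90 to 166, 114 to 205, 117 to 207, 87 to 152 and 56 to 174 in Noradrenergic1 to Noradrenergic5, and 2 to 6 between the sexes. The lowest came without P29 male or P31 female, apart from Ach1 against Ach2 and the sexes (P38 male).

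Values with no call that changed sign were Ramp1 in cholinergic against noradrenergic with at least 2 cells (0.061); Calca in Ach1 against Ach2 with at least 2 cells (0.060) and without P30 female (1.31, from -1.20 over the collections left out); Adm in Noradrenergic1 with RLE (0.18), filterByExpr (0.18), DESeq2 (0.19), without P34 female (0.012) and without P38 male (0.63; lowest -0.24); Adm in Noradrenergic2 with RLE (-0.11), filterByExpr (-0.16), DESeq2 (-0.29), no replicate block (-0.037) and without P11 (-0.07), P31 (-0.25) or P33 female (-0.42); Ramp1 in Noradrenergic4 without P30 female (-0.11; highest 0.28); and Ramp1 between the sexes without P38 male (-0.044; highest 0.55). RLE raised the median of all genes by 0.41 in Glutamatergic and 0.15 in cholinergic against noradrenergic, and the share of calls that were higher was 86.4% and 60.7% with RLE, against 61.5% and 47.5% with TMM. Of the 28 calls of listed genes named here, 22 were lost in at least 1 alternative. The other 6 were kept in those that could test them, and none of the 28 turned round. Thinning moved the shares of Adm to 52.5% in Noradrenergic2 and 75.9% in Noradrenergic3, and of Ramp1 to 84.1% and 44.6%. The causes were not tested. At 19, 13 and 4 counts of Calcrl, Ramp2 and Ramp3 in named cells, low expression and shallow sequencing cannot be told apart. The alternatives on a single cell, on chips and on Calcrl with no filter were chosen after seeing the data.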

Other observations

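In the 85 Unclassified cells, Adm was found in 71.8% of cells (63.7% after thinning, in the 68 cells deep enough) at 0.875 per 10000, and Ramp1 in 69.4% (56.3% thinned) at 0.860 per 10000. Calca had 0 counts, which allows up to 0.0154 per 10000, and Calcb had 1. The noradrenergic marker sum in these cells was 15.4 to 143 per 10000, with a median of 84.3. The only Unclassified cell with Calcrl, a P31 female cell, held 3 counts of it beside 1 each of Ramp1 and Ramp2, and 9 of the 12 endothelial genes (16.2 per 10000). The Unclassified cells with Ramp2 were 5 and those with Ramp3 were 2.

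Fibroblast markers (6 genes) had a median sum of 1.18 per 10000 (0.444 to 4.92) in Glutamatergic, 0.532 (0 to 18.8) in cholinergic and 0 (0 to 98.9) in noradrenergic cells. Macrophage markers (6 genes) had no count in Glutamatergic cells and at most 3.93 per 10000 in cholinergic and 3.07 in noradrenergic cells.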
